A study of Homo sapiens with 8 samples.

Results

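The genes described here encode the subunits of RNA polymerases I, II and III, the general transcription factors of the TFII and TFIIIC families, and the TBP-associated factors (TAFs). They were taken by gene symbol: POLR1, POLR2 or POLR3 plus a capital letter, every symbol starting GTF2 or GTF3C, and TAF plus a number up to 15 with or without a letter, with TBP itself left out. The rule found 83 of the 25268 symbols in the deposited tables: 5 POLR1, 16 POLR2, 10 POLR3, 21 GTF2, 7 GTF3C and 24 TAF genes. Symbol matching also takes in copies, pseudogenes and 1 antisense transcript, and it misses polymerase I subunits listed under older symbols, which are given separately.

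The study sequenced polyadenylated RNA from human fibroblast cultures, which the labels call population control lines, transfected with siRNA by Lipofectamine RNAiMax. In each of 2 lines, 2 samples received siRNA against SUPT4H1 and 2 received a control siRNA described as non-targeting, so 4 samples per siRNA were compared. All 8 samples shared the medium, DMEM with 10% FBS, and the transfection reagent, and the time between transfection and harvest is not given in the sources used here. The labels do not say that the replicate treatments came from separate cultures, so p-values reflect only how much these samples vary, which may be technical variation, and 2 lines are a small sample of lines.

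SUPT4H1 encodes Spt4, the small partner of SUPT5H (Spt5) in DSIF, a factor that rides on elongating RNA polymerase II. Polymerase I makes ribosomal RNA, polymerase II makes messenger RNA and polymerase III makes transfer RNA and other small RNAs; they share a set of small subunits and differ in the large ones. TFIIA, TFIIB, TFIID, TFIIE, TFIIF and TFIIH place polymerase II at promoters, and TFIIIC recruits polymerase III to internal promoter elements. Most TAFs are the non-TBP subunits of TFIID or, for TAF1A to TAF1D, of the polymerase I selectivity factor SL1. TAF5L and TAF6L are instead subunits of the SAGA acetyltransferase complex, and TAF15 is an RNA-binding protein.

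Values are FPKM (fragments per kilobase of transcript, scaled to the mapped fragments of the sample), which are per length and so allow levels to be compared between genes. In each list of 4 FPKM values, line 1 replicates 1 and 2 come before line 2 replicates 1 and 2. SUPT4H1 measured 1.37, 1.43, 1.69 and 1.74 FPKM after SUPT4H1 siRNA, against 25.6, 25.6, 26.2 and 28.3 FPKM after control siRNA. The targeted mRNA was thus at 5.46% of control in line 1 and 6.3% in line 2 (log2 change -3.42, SE 0.03, limma adjusted p = 4.05e-11). Its partner SUPT5H averaged 24.0 ± 1.5 FPKM after SUPT4H1 siRNA and 22.6 ± 0.28 FPKM after control siRNA (SD, n = 4 each), a log2 change of 0.08 that did not pass the test (adjusted p = 0.0614). FPKM summed to 297431 to 305680 per sample after SUPT4H1 siRNA and 288293 to 303371 after control siRNA. In each line, both SUPT4H1 siRNA sums were above both control sums. Of 27032 listed loci, 11321 to 11447 reached 1 FPKM, and the number of sequenced fragments is not in these values. All 10 fibroblast markers were expressed, with summed FPKM of 12105 to 14433 after SUPT4H1 siRNA and 13559 to 14380 after control siRNA. Of the 10, 5 (COL3A1, COL5A1, FAP, PDGFRA and PDGFRB) fell, which is 50%, beside 15.2% of all genes tested. With no line term in the limma fit, FAP still passed (adjusted p = 0.0216). COL3A1, COL5A1, PDGFRA and PDGFRB then did not (0.505, 0.0902, 0.336 and 0.805). Of the other lists, 4 keratinocyte and epithelial markers summed to at most 0.142 FPKM after SUPT4H1 siRNA and 0.111 after control siRNA, with KRT5 at 0 in every sample. The 3 endothelial markers summed to at most 0.0912 and 0.0573 FPKM in the same order, and the 3 melanocyte markers to at most 0.154 and 0.162 FPKM. The 2 muscle markers, DES and MYH11, summed to 0.148 to 0.416 FPKM after SUPT4H1 siRNA and 0.6 to 1.19 FPKM after control siRNA. Among 3 immune markers CD3E was at 0 in every sample and PTPRC averaged 0.123 ± 0.046 FPKM after SUPT4H1 siRNA and 0.143 ± 0.069 FPKM after control siRNA (SD, n = 4 each). CD68, which also encodes a lysosomal protein made outside immune cells, averaged 65.3 ± 10 FPKM after SUPT4H1 siRNA and 46.2 ± 2.9 FPKM after control siRNA (log2 change 0.48, adjusted p = 0.00277). The part of these differences in the results below was not tested.

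The comparison asked whether mRNAs of the transcription machinery changed when SUPT4H1 was depleted. Among 70 genes that could be tested, 17 rose and 5 fell after SUPT4H1 siRNA, and 48 did not pass the test. Across all 11444 tested genes, 26.8% rose and 15.2% fell, so the 24.3% of the machinery genes that rose were near the background and the 7.14% that fell were below it. Changes were small: 49 of the 70 were under 0.1 in size on the log2 scale, 4 reached 0.25 (POLR2L, POLR3GL, TAF13 and POLR1E), and the median size was 0.07, beside 0.09 over all genes tested. The median change was 0.02 with 45 of 70 (64.3%) above 0, beside 0.03 with 59.8% above 0 over all genes. A change passed where the Benjamini-Hochberg adjusted p of limma, with line as a block, was under 0.05 over all genes tested. In RNA from whole cultures, fewer cells of a type and less RNA per cell cannot be told apart. Fold changes are on the log2(FPKM + 1) scale, which understates the change of low genes, and FPKM is relative to the total, so they say nothing of RNA per cell.

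**Figure D1:**
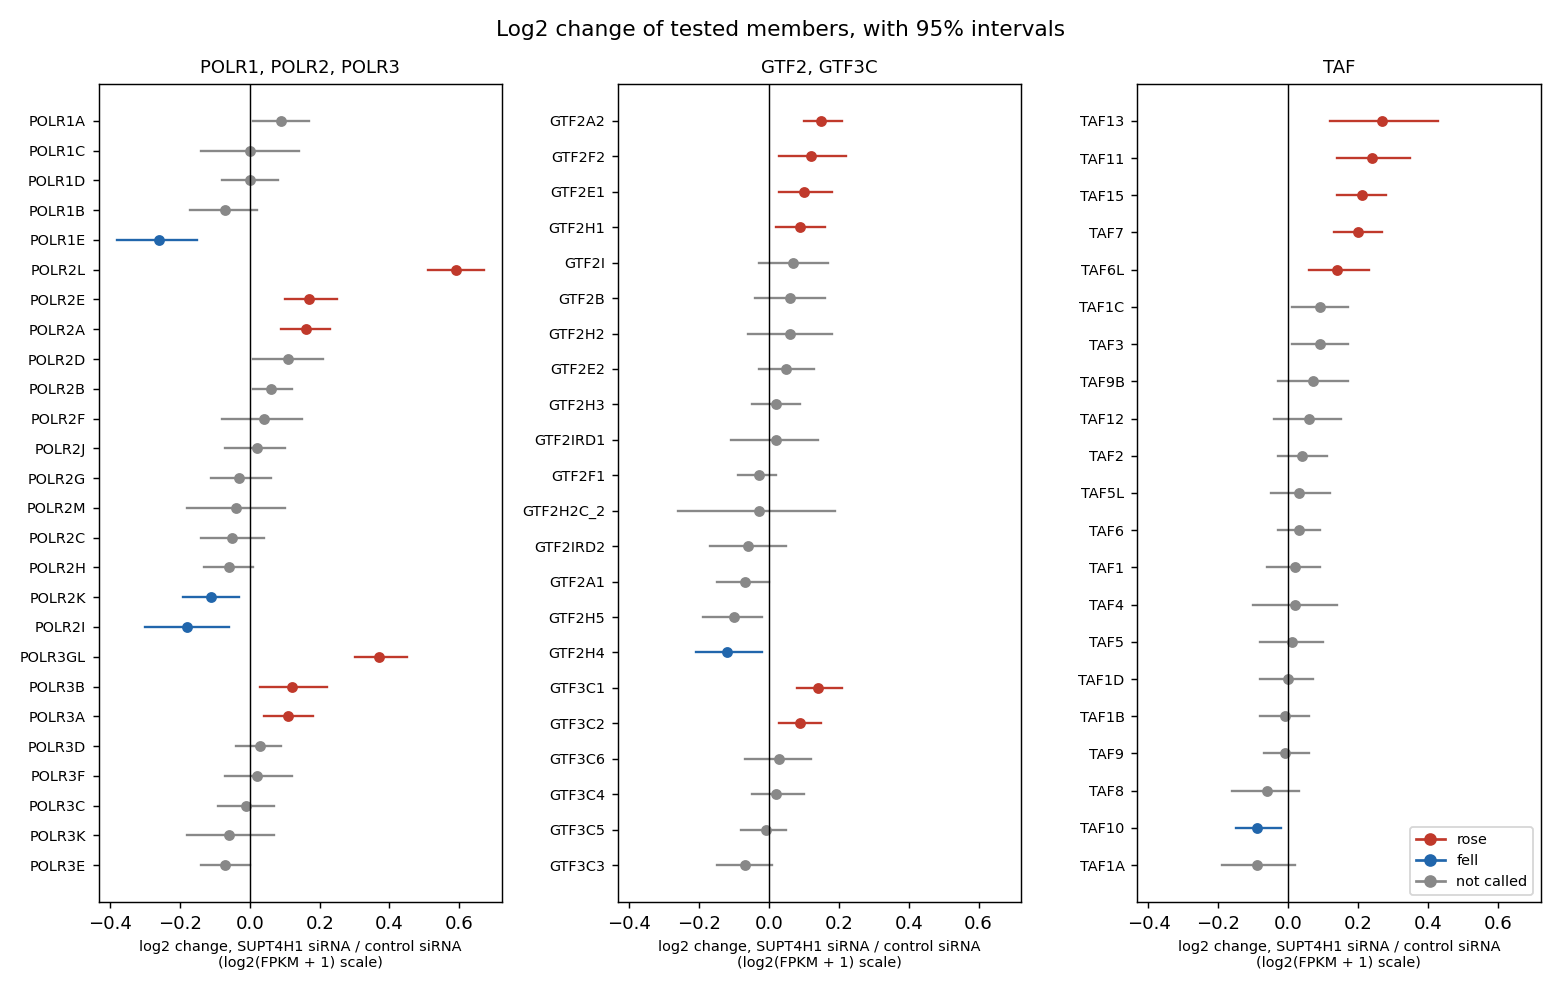
Log2 change (SUPT4H1 siRNA over control siRNA, log2(FPKM + 1) scale, horizontal axis) of the tested genes named in the text, with points for the estimate and bars for its 95% confidence interval, red where the gene rose, blue where it fell and grey where it was not called. POLR2L at 0.59 and POLR3GL at 0.37 stand to the right, POLR1E at -0.26 to the left, and most other points lie within 0.1 of 0.

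The largest rise belonged to POLR2L, the gene of the small zinc-binding subunit shared by polymerases I, II and III. The bases upstream of its annotated start are shown because it is the member that moved most, and those of POLR3GL and TAF13, the next risers, stand beside it. They are from RefSeq, GRCh38.p14, each 250 bases ending at the base before the start site, 5′ to 3′ on the gene's strand. POLR2L lies at chr11:842530-842779 (minus strand), POLR3GL at chr1:145964440-145964689 (plus strand) and TAF13 at chr1:109076004-109076253 (minus strand). Capitals mark matches on either strand to the TATA box (TATAAA), the CCAAT box (CCAAT), the GC box (GGGCGG) or the ETS core (CCGGAAG), and no motif in these 3 windows overlaps another.
POLR2L: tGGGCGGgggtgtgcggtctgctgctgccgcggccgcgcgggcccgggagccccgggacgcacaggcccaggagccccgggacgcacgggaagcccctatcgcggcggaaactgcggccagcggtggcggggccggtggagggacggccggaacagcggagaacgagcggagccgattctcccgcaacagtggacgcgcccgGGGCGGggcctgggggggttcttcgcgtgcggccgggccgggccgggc
POLR3GL: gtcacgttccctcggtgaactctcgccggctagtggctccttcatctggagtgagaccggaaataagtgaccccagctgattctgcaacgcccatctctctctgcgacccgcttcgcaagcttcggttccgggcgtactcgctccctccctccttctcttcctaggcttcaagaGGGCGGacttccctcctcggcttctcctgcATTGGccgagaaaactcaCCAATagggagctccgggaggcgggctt
TAF13: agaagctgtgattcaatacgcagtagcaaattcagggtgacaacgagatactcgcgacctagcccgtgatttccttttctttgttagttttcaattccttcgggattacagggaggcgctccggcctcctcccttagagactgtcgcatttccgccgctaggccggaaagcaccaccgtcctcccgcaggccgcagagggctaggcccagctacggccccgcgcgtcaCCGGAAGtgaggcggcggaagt
The POLR2L window holds 2 GC box matches and is 79.2% G and C. The POLR3GL window holds 2 CCAAT box matches and 1 GC box match at 60.0% G and C, and the TAF13 window holds 1 ETS core match at 58.4%. RefSeq promoters were found for 62 of the 83 genes, 79 windows in all, so some genes count more than once. The ETS core occurred in 31.6% of these windows, beside 8.52% of all 35116 windows of the same length. The GC box occurred in 60.8%, beside 42.6% of all. The CCAAT box occurred in 27.8%, beside 32.0%, and the TATA box in 3.8%, beside 10.7%. The median G and C share was 61.6% in the 79 windows and 58.0% in all windows. The set of all windows was not limited to genes expressed in these cells, and these differences were not tested. A match is a run of letters and not a measured site.

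POLR2L measured 145, 149, 185 and 183 FPKM after SUPT4H1 siRNA, against 99.1, 104, 114 and 118 FPKM after control siRNA. Every SUPT4H1 siRNA sample was above every control sample. The level stood at 159% of control in line 2 and 144% in line 1, with a log2 change of 0.59 (SE 0.03, adjusted p = 5.76e-06) that passed without any 1 sample and also with no line term (adjusted p = 0.022). The authors' intervals on each value were 2.82 to 3.68% wide on each side, far below the difference. Relative to POLR2A in the same sample, POLR2L averaged 6.58 ± 0.70 after SUPT4H1 siRNA and 4.87 ± 0.19 after control siRNA (SD, n = 4 each). POLR2L is listed at 11:839721-842529 (hg19).

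The other shared subunits did not move together. POLR2E, which sits in the jaw of all 3 polymerases, measured 31.0, 29.7, 29.9 and 29.5 FPKM after SUPT4H1 siRNA, against 25.9, 28.6, 25.5 and 26.4 FPKM after control siRNA, and rose by 0.17 (SE 0.03, adjusted p = 0.00342). All its SUPT4H1 siRNA values were above all control values. The POLR2E locus shares 1253 bases with HMHA1, which averaged 0.968 FPKM after SUPT4H1 siRNA and 0.703 FPKM after control siRNA. POLR2K, a small zinc-binding subunit, measured 24.5, 25, 21.8 and 22.3 FPKM after SUPT4H1 siRNA, against 25.9, 26.0, 23.4 and 26.0 FPKM after control siRNA, lower within each line and overlapping across lines. Its log2 change was -0.11 (SE 0.04, adjusted p = 0.0331), a call that ended without control siRNA line 1 replicate 2 (0.0525), SUPT4H1 siRNA line 1 replicate 1 (0.0613), control siRNA line 2 replicate 2 (0.0528), or SUPT4H1 siRNA line 2 replicate 1 (0.0947) or 2 (0.0754). POLR2F at 0.04 and POLR2H at -0.06 were not called (limma adjusted p = 0.611 and 0.164). Thus 2 of the 5 subunits common to all polymerases rose (40%) and 1 fell (20%), beside 26.8% and 15.2% of all genes tested. POLR1C and POLR1D, shared by polymerases I and III, both had a log2 change of 0.00 (adjusted p = 0.983 for each). POLR1D was the highest POLR1 gene, at 28.1, 29.0, 32.1 and 31.7 FPKM after SUPT4H1 siRNA and 26.2, 29.2, 32.4 and 33.3 FPKM after control siRNA, with wholly overlapping groups.

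Of 3 subunits particular to polymerase I, POLR1E fell and the 2 catalytic subunits were not called. POLR1E, which forms a TFIIF-like pair at the side of polymerase I, measured 8.54, 9.34, 7.73 and 6.98 FPKM after SUPT4H1 siRNA, against 11.3, 12.1, 8.10 and 8.71 FPKM after control siRNA. Both SUPT4H1 siRNA samples were below both control samples in each line, while across lines the groups overlapped. It stood at 87.5% of control in line 2 and 76.3% in line 1 (log2 change -0.26, SE 0.05, adjusted p = 0.00356), a call that passed without any 1 sample and ended with no line term (adjusted p = 0.329). The largest subunit, POLR1A, averaged 4.64 ± 0.25 FPKM after SUPT4H1 siRNA and 4.32 ± 0.23 FPKM after control siRNA (SD, n = 4 each; log2 change 0.09, adjusted p = 0.0774). The second largest, POLR1B, averaged 2.76 ± 0.29 and 2.95 ± 0.31 FPKM in the same groups (-0.07, adjusted p = 0.209). POLR1E is listed at 9:37485932-37503694 (hg19). The median of the 5 POLR1 genes was 0.00, with 0 risers and 1 faller by limma, beside 26.8% and 15.2% of all genes tested. At an unadjusted p under 0.05, 1 was higher, beside 32.3% of all genes tested, and 1 lower, beside 18.4%.

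Among subunits particular to polymerase II, POLR2A rose and POLR2I fell, and the 5 others were not called. POLR2A, the largest subunit, whose repeated tail recruits capping, splicing and polyadenylation factors, measured 25.4, 23.3, 25.9 and 25.7 FPKM after SUPT4H1 siRNA, against 21.4, 21.6, 23.3 and 23.2 FPKM after control siRNA. It was higher within each line (log2 change 0.16, SE 0.03, adjusted p = 0.00242), and it was not called with no line term (adjusted p = 0.113). The second largest subunit, POLR2B, was above its controls in each line by 0.06 and was not called (adjusted p = 0.0649). POLR2I, which in yeast affects start site choice and fidelity, measured 10.7, 12.1, 11.3 and 10.3 FPKM after SUPT4H1 siRNA, against 12.2, 12.4, 12.5 and 13.7 FPKM after control siRNA. All its SUPT4H1 siRNA values were below all control values (-0.18, SE 0.05, adjusted p = 0.0232). The call ended without SUPT4H1 siRNA line 1 replicate 1 (0.0651), control siRNA line 2 replicate 2 (0.0641) or SUPT4H1 siRNA line 2 replicate 2 (0.0653). The POLR2I locus shares 319 bases with TBCB, which averaged 28.6 FPKM after SUPT4H1 siRNA and 27.7 after control siRNA, and use of strand is not given in the sources used here, so reads from the shared bases cannot be told apart. POLR2C, POLR2D, POLR2G and POLR2J, the remaining core and stalk subunits, lay between -0.05 and 0.11 and were not called. The 13 tested POLR2 genes had a median of 0.02, with 3 risers and 2 fallers. Their shares of 23.1% and 15.4% stand beside 26.8% and 15.2% of all genes tested.

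**Figure D2:**
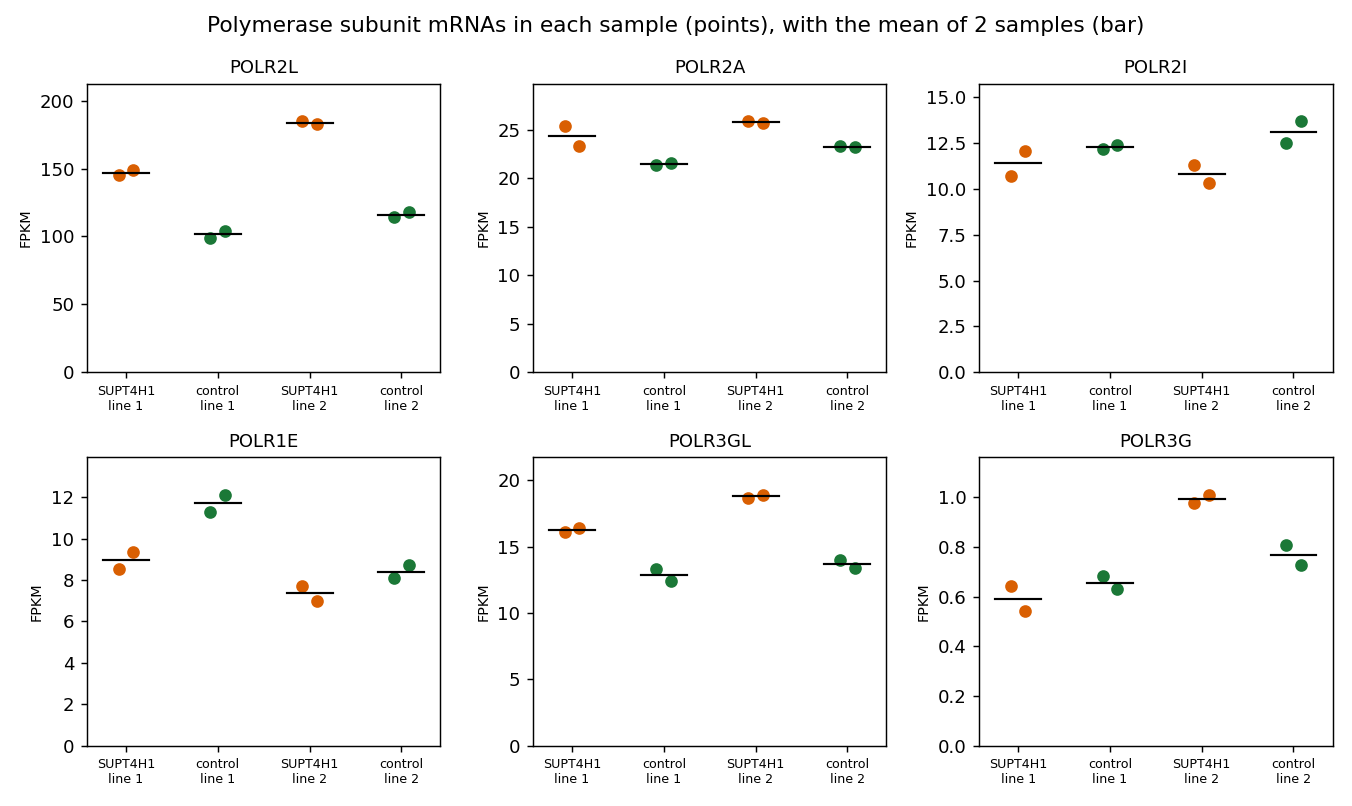
FPKM (vertical axes, from 0) of 6 polymerase subunit genes in each sample, orange points for SUPT4H1 siRNA and green points for control siRNA in line 1 and line 2, with a bar at the mean of 2 samples. POLR2L, POLR2A and POLR3GL are higher with SUPT4H1 siRNA in both lines, POLR2I and POLR1E lower in both lines, and POLR3G is near or below 1 FPKM throughout.

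Polymerase III genes showed 3 risers and 0 fallers among 9 tested, a share of 33.3% beside the 26.8% of all genes, and a median of 0.03; at an unadjusted p under 0.05, 4 were higher and 0 lower by limma, beside the same 32.3% and 18.4% of all genes. POLR3GL rose most. It encodes 1 of a pair of alternative subunits, the other being POLR3G, that join the POLR3C and POLR3F trimer needed for initiation. POLR3GL measured 16.1, 16.4, 18.7 and 18.9 FPKM after SUPT4H1 siRNA, against 13.3, 12.4, 14.0 and 13.4 FPKM after control siRNA. The groups did not overlap, and the level stood at 137% of control in line 2 and 127% in line 1 (log2 change 0.37, SE 0.03, adjusted p = 6.3e-05). The call passed without any 1 sample and with no line term (adjusted p = 0.0198). POLR3GL is listed at 1:145456236-145470387 (hg19), a span shared with long rows for NBPF25P (2.29 FPKM after SUPT4H1 siRNA, 2.43 after control siRNA), NBPF10 and NBPF20 (each under 1 FPKM).

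POLR3G, by contrast, measured 0.644, 0.542, 0.977 and 1.01 FPKM after SUPT4H1 siRNA and 0.682, 0.633, 0.810 and 0.729 FPKM after control siRNA. Its mean of 0.754 FPKM over all samples fell short of the 1 FPKM needed for testing. SUPT4H1 siRNA samples were above the controls in line 2 and overlapped them in line 1. In the same sample POLR3GL exceeded POLR3G by a ratio of 23.3 ± 5.5 after SUPT4H1 siRNA and 18.7 ± 1.1 after control siRNA (SD, n = 4 each). Most of that difference came from line 1, at 25 and 30.3 after SUPT4H1 siRNA against 19.6 and 19.5 after control siRNA. In line 2 the ratios were 19.1 and 18.6 against 17.2 and 18.4, and across lines the groups overlapped.

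The 2 catalytic subunits of polymerase III also passed, with small changes. POLR3A measured 3.62, 3.50, 3.68 and 3.75 FPKM after SUPT4H1 siRNA, against 3.26, 3.24, 3.34 and 3.38 FPKM after control siRNA. Its groups did not overlap, and its log2 change of 0.11 (SE 0.03, adjusted p = 0.0195) was lost without SUPT4H1 siRNA line 1 replicate 1 (0.0529) or SUPT4H1 siRNA line 2 replicate 2 (0.055). POLR3B measured 2.91, 2.75, 2.57 and 2.54 FPKM after SUPT4H1 siRNA, against 2.74, 2.65, 2.04 and 2.17 FPKM after control siRNA, higher within each line and overlapping across lines. Its change of 0.12 (SE 0.04, adjusted p = 0.0427) was lost when any sample other than control siRNA line 1 replicate 1 or SUPT4H1 siRNA line 1 replicate 2 was left out (0.0697 to 0.119). With POLR2A, 3 of the 6 largest or second largest subunits rose (50%, beside 26.8% of all genes tested), and POLR1A, POLR1B and POLR2B were not called. With no line term POLR2A, POLR3A and POLR3B were not called either (limma adjusted p = 0.113, 0.161 and 0.457). Scaling by median ratios ended the calls of POLR3A (0.0618) and POLR3B (0.0858). POLR3C, POLR3D, POLR3E, POLR3F and POLR3K lay between -0.07 and 0.03 and were not called.

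In the TFII family, 4 of 16 tested genes rose (25%) and 1 fell (6.25%), beside 26.8% and 15.2% of all genes tested. The median was 0.04. GTF2A2, the small subunit of TFIIA, which stabilises TBP on DNA, measured 16.2, 15.9, 16.6 and 16.6 FPKM after SUPT4H1 siRNA, against 14.1, 14.7, 14.9 and 14.6 FPKM after control siRNA. The groups did not overlap (log2 change 0.15, SE 0.02, adjusted p = 0.00107), and the call passed without any 1 sample and with no line term (adjusted p = 0.04). Its partner GTF2A1 averaged 7.69 ± 0.59 FPKM after SUPT4H1 siRNA and 8.14 ± 0.49 FPKM after control siRNA (SD, n = 4 each), a change of -0.07 that was not called (adjusted p = 0.109). GTF2A2 exceeded GTF2A1 by a ratio of 2.14 ± 0.20 after SUPT4H1 siRNA and 1.80 ± 0.15 after control siRNA. GTF2B, which encodes TFIIB, the bridge between TBP and polymerase II, changed by 0.06 (adjusted p = 0.323).

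TFIIE and TFIIF each had 1 riser. GTF2F2, the small subunit of TFIIF, measured 13.0, 13.1, 21.9 and 21.3 FPKM after SUPT4H1 siRNA, against 12.2, 12.8, 17.8 and 19.9 FPKM after control siRNA, higher within each line (0.12, SE 0.04, adjusted p = 0.0384). That call ended without control siRNA line 1 replicate 1 (0.0715), SUPT4H1 siRNA line 1 replicate 2 (0.0516), control siRNA line 2 replicate 1 (0.0683), or SUPT4H1 siRNA line 2 replicate 1 (0.109) or 2 (0.0887). GTF2E1, the large subunit of TFIIE, measured 2.83, 2.87, 2.74 and 2.69 FPKM after SUPT4H1 siRNA, against 2.60, 2.62, 2.41 and 2.47 FPKM after control siRNA. No SUPT4H1 siRNA value of GTF2E1 overlapped the controls, but its change of 0.10 (SE 0.03, adjusted p = 0.0295) was lost when any 1 of the 8 samples was left out (0.0527 to 0.0754). The partners GTF2F1 (-0.03) and GTF2E2 (0.05) were not called. The GTF2F2 locus shares 8188 bases with KCTD4, which averaged 0.961 FPKM after SUPT4H1 siRNA and 0.546 FPKM after control siRNA.

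TFIIH core genes went both ways. GTF2H1 measured 13.2, 14.1, 15.0 and 15.3 FPKM after SUPT4H1 siRNA, against 12.5, 13.3, 14.2 and 14.0 FPKM after control siRNA, with overlap in line 1. Its change of 0.09 (SE 0.03, adjusted p = 0.0438) was lost when any sample other than control siRNA line 1 replicate 2 or SUPT4H1 siRNA line 1 replicate 1 was left out (0.0793 to 0.123). GTF2H4, which in TFIIH holds the ERCC3 helicase, measured 7.45, 6.90, 7.20 and 6.64 FPKM after SUPT4H1 siRNA, against 7.72, 7.62, 7.37 and 8.20 FPKM after control siRNA. These values are sums of 6 rows of that symbol. GTF2H4 was lower within each line (-0.12, SE 0.04, limma adjusted p = 0.0492), and the call was lost when any sample other than SUPT4H1 siRNA line 1 replicate 1 or control siRNA line 2 replicate 1 was left out (0.0611 to 0.136). GTF2H3 at 0.02 and GTF2H5 at -0.10 were not called (adjusted p = 0.641 and 0.0559). The kinase CDK7, a TFIIH subunit outside the symbol rule, averaged 7.34 ± 1.2 FPKM after SUPT4H1 siRNA and 5.91 ± 0.76 FPKM after control siRNA (SD, n = 4 each) and rose by 0.27 (SE 0.04, adjusted p = 6.51e-04). That call ended with no line term (limma adjusted p = 0.262). CDK7 was the only 1 of the 5 helicase and kinase genes to pass, ERCC2, ERCC3, CCNH and MNAT1 being the others. The share that rose was 20%, beside 26.8% of all genes tested.

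GTF2H2 has near-identical copies that can share reads, so its values are uncertain. It measured 3.05, 2.51, 0.995 and 0.900 FPKM after SUPT4H1 siRNA and 2.55, 2.72, 0.843 and 0.875 FPKM after control siRNA, with authors' intervals of 13.3 to 26.4% on each side. The siRNA groups overlapped and the change of 0.06 was not called (adjusted p = 0.386), nor was that of the copy GTF2H2C_2 (-0.03, adjusted p = 0.805). Summed with GTF2H2B, GTF2H2C and GTF2H2C_2, the family measured 5.46, 4.97, 2.94 and 2.84 FPKM after SUPT4H1 siRNA and 5.31, 5.13, 2.58 and 3.03 FPKM after control siRNA. POLR2J also has copies, and the sum of POLR2J, POLR2J2 and POLR2J3 was 16.0, 16.6, 12.6 and 14.5 FPKM after SUPT4H1 siRNA and 14.9, 16.1, 14.7 and 14.0 FPKM after control siRNA. Both sums overlapped between siRNAs. GTF2I, which encodes the signal-responsive factor TFII-I and has a pseudogene copy GTF2IP1, was the highest GTF2 gene, at 35.0, 31.4, 35.9 and 36.2 FPKM after SUPT4H1 siRNA and 32.5, 33.3, 31.3 and 34.5 FPKM after control siRNA. It overlapped between siRNAs (0.07, adjusted p = 0.224), and its relatives GTF2IRD1 (0.02) and GTF2IRD2 (-0.06) were not called either.

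TFIIIC genes had a median of 0.02. By limma, 2 of 6 tested genes rose (33.3%) and 0 fell, beside 26.8% and 15.2% of all genes tested. At an unadjusted p under 0.05, 2 were higher and 0 lower, beside 32.3% and 18.4% of all genes. Both risers encode subunits of the part of TFIIIC that reads the B box of transfer RNA genes. GTF3C1 measured 12.2, 11.8, 12.4 and 11.8 FPKM after SUPT4H1 siRNA, against 11.1, 11.0, 10.7 and 10.6 FPKM after control siRNA. The groups did not overlap (0.14, SE 0.03, adjusted p = 0.00318), and the call passed without any 1 sample but not with no line term (adjusted p = 0.0506). GTF3C2 measured 7.90, 7.68, 7.81 and 7.58 FPKM after SUPT4H1 siRNA, against 7.27, 7.46, 7.07 and 7.08 FPKM after control siRNA, also with no overlap (0.09, SE 0.03, adjusted p = 0.0259). Its call ended without control siRNA line 1 replicate 1 (0.0663), SUPT4H1 siRNA line 1 replicate 1 (0.064), control siRNA line 2 replicate 1 (0.0629) or 2 (0.0618), or SUPT4H1 siRNA line 2 replicate 1 (0.0775). GTF3C6, the highest of the family, measured 12.9, 11.8, 13.7 and 13.1 FPKM after SUPT4H1 siRNA and 12.0, 12.7, 12.3 and 13.6 FPKM after control siRNA (0.03, adjusted p = 0.647), and GTF3C3, GTF3C4 and GTF3C5 lay between -0.07 and 0.02.

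TAF genes had 5 risers and 1 faller among 21 tested, with a median of 0.03. These shares of 23.8% and 4.76% stand beside 26.8% and 15.2% of all genes tested. TFIID subunits are encoded by 3 of the risers and by the faller. TAF13 and TAF11 form a histone-fold pair within TFIID, and both rose. TAF13 measured 28.7, 26.7, 42.9 and 46.5 FPKM after SUPT4H1 siRNA, against 26.9, 23.3, 31.8 and 35.1 FPKM after control siRNA. In line 2 the groups were apart, and in line 1 the lower SUPT4H1 siRNA sample lay just below the higher control sample. It stood at 134% of control in line 2 and 110% in line 1 (log2 change 0.27, SE 0.07, adjusted p = 0.0109), passing without any 1 sample and not with no line term (adjusted p = 0.533). TAF11 measured 9.19, 10.1, 10.7 and 9.87 FPKM after SUPT4H1 siRNA, against 8.30, 8.07, 7.73 and 8.89 FPKM after control siRNA. Its groups did not overlap (0.24, SE 0.05, adjusted p = 0.00341; 0.0495 with no line term).

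TAF7, which binds TAF1 and restrains its acetyltransferase activity, measured 31.3, 33.5, 31.4 and 31.4 FPKM after SUPT4H1 siRNA, against 28.4, 27.1, 27.2 and 28.0 FPKM after control siRNA. No values overlapped (0.20, SE 0.03, adjusted p = 7.34e-04), and the call passed with no line term (adjusted p = 0.0256). TAF1, the largest TFIID subunit, averaged 4.19 ± 0.22 FPKM after SUPT4H1 siRNA and 4.14 ± 0.42 FPKM after control siRNA (SD, n = 4 each; 0.02, adjusted p = 0.712). TAF10, a subunit of both TFIID and the SAGA acetyltransferase complex and the highest TAF gene, measured 45.7, 45.9, 48.8 and 48.7 FPKM after SUPT4H1 siRNA, against 48.5, 51.2, 49.4 and 52.2 FPKM after control siRNA. It was lower within each line (-0.09, SE 0.03, adjusted p = 0.0334), and the call was lost when any sample other than control siRNA line 1 replicate 1 or control siRNA line 2 replicate 1 was left out (0.0557 to 0.097). TAF10 shares 58 bases with ILK, which averaged 65.3 FPKM after SUPT4H1 siRNA and 58.2 after control siRNA. The other TFIID genes, TAF2, TAF3, TAF4, TAF5, TAF6, TAF8, TAF9, TAF9B and TAF12, lay between -0.06 and 0.09 and were not called.

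Outside TFIID, TAF15 and TAF6L rose. TAF15, an RNA-binding protein, measured 36.3, 36.1, 37.7 and 38.8 FPKM after SUPT4H1 siRNA, against 33.1, 31.6, 31.3 and 32.4 FPKM after control siRNA. The groups did not overlap (0.21, SE 0.03, adjusted p = 6.51e-04; 0.0248 with no line term). TAF6L, a SAGA subunit, measured 4.49, 4.87, 3.70 and 3.99 FPKM after SUPT4H1 siRNA, against 4.38, 4.13, 3.27 and 3.31 FPKM after control siRNA, higher within each line and overlapping across lines (0.14, SE 0.04, adjusted p = 0.0158). The SAGA subunit TAF5L (0.03) was not called, nor were the 4 SL1 genes TAF1A (-0.09), TAF1B (-0.01), TAF1C (0.09) and TAF1D (0.00).

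**Figure D3:**
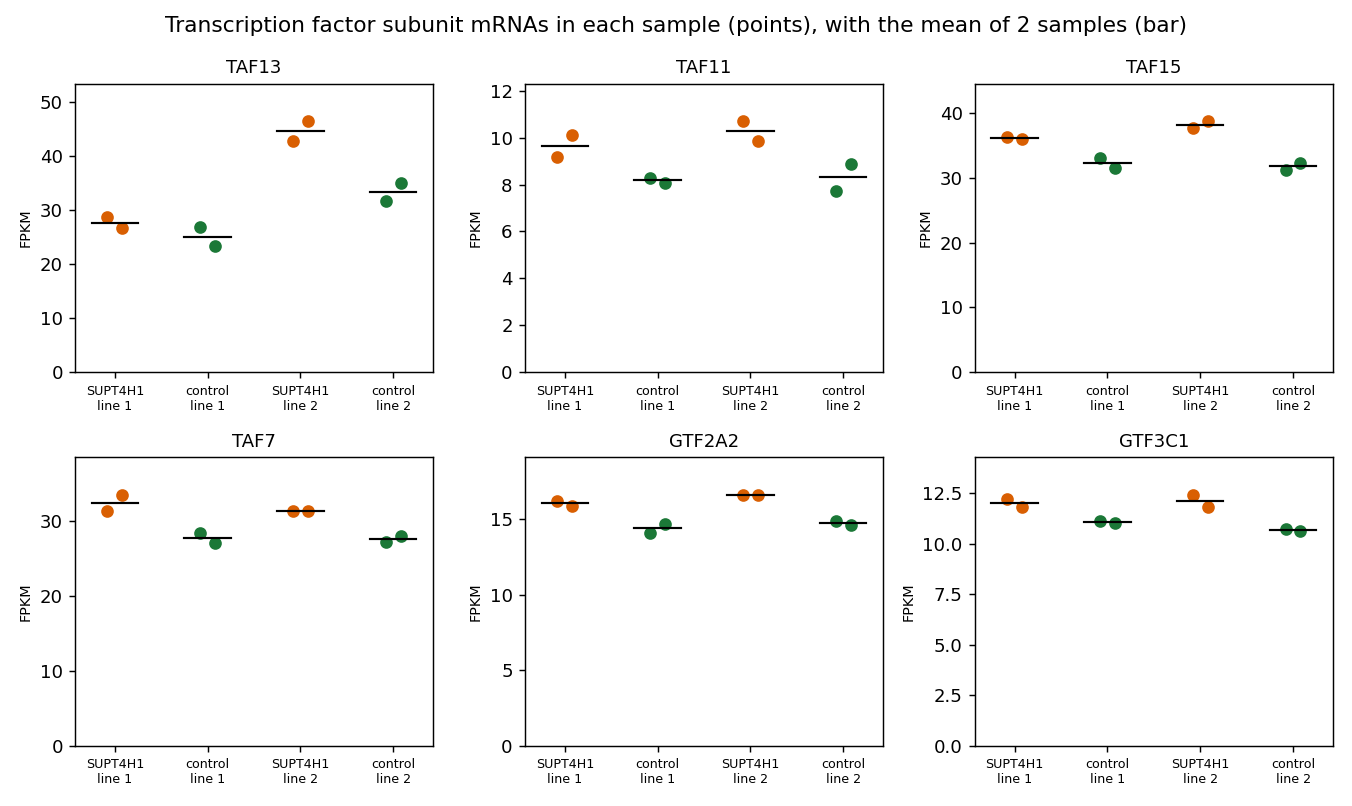
FPKM (vertical axes, from 0) of 6 general transcription factor and TAF genes in each sample, orange points for SUPT4H1 siRNA and green points for control siRNA in line 1 and line 2, with a bar at the mean of 2 samples. All but TAF13 show both SUPT4H1 siRNA points above both control points in each line, and TAF13 is also higher in line 2 than in line 1 under either siRNA.

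Set side by side, the medians were 0.03 for TAF genes, 0.02 for TFII and TFIIIC genes together, 0.03 for POLR3, 0.02 for POLR2 and 0.00 for POLR1, beside 0.03 over all genes; these differences were not tested. In each line, both SUPT4H1 siRNA samples lay above both controls for 19 of the 70 genes, beside 28.8% of all genes tested, and below for 7, beside 16.6%. Of the 22 genes called, 20 were ordered in this way and GTF2H1 and TAF13 were not. Calls rested on the line term: with no line term 3.56% of all genes rose and 1.78% fell, and 6 machinery genes rose (POLR2L, POLR3GL, TAF15, TAF7, TAF11 and GTF2A2) while 0 fell by limma (12 higher and 2 lower at an unadjusted p under 0.05, beside 14.1% and 6.54% of all genes). Of the 22, 12 passed without any 1 of the 8 samples: POLR2L, POLR3GL, TAF13, TAF11, TAF15, TAF7, POLR2E, POLR2A, GTF2A2, TAF6L, GTF3C1 and POLR1E. Among the 48 not called, the 95% interval of the log2 change reached at most 0.22 to each side of the estimate. A scaling of each sample by the median ratio over genes shifted all genes down by about 0.03 and gave 11 risers, beside 20.3% of all genes, and 10 fallers, beside 20.2%. GTF2H5, GTF2A1, POLR3E, GTF3C3 and POLR2H then joined the fallers, and POLR3A, POLR3B, GTF2F2, GTF2E1, GTF2H1 and GTF3C2 were no longer called.

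The 2 lines gave similar responses for most of the machinery, with a Spearman correlation of 0.72 between line 2 and line 1 changes over 70 genes, beside 0.64 over all genes tested; genes are not independent replicates. POLR2M was the exception. Its product, also called Gdown1, binds polymerase II and competes with TFIIF. In line 2, POLR2M measured 10.5 and 10.4 FPKM after SUPT4H1 siRNA, against 12.1 and 12.4 FPKM after control siRNA. In line 1, it measured 19.9 and 20.6 FPKM after SUPT4H1 siRNA, against 17.8 and 19.1 FPKM after control siRNA. SUPT4H1 siRNA samples were thus below their controls in line 2 and above them in line 1. The log2 change was -0.21 in line 2 (adjusted p = 0.00213) and 0.13 in line 1 (adjusted p = 0.0319), a difference of -0.34 (SE 0.06, adjusted p = 0.00475). Of all genes tested, 9.87% differed between lines by this test, and POLR2M was the only 1 of the 70 machinery genes to do so. Over both lines its change was -0.04 (adjusted p = 0.647). GCOM1, which spans POLR2M, was listed at 0.00499 FPKM after SUPT4H1 siRNA and 0.0283 FPKM after control siRNA.

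**Figure D4:**
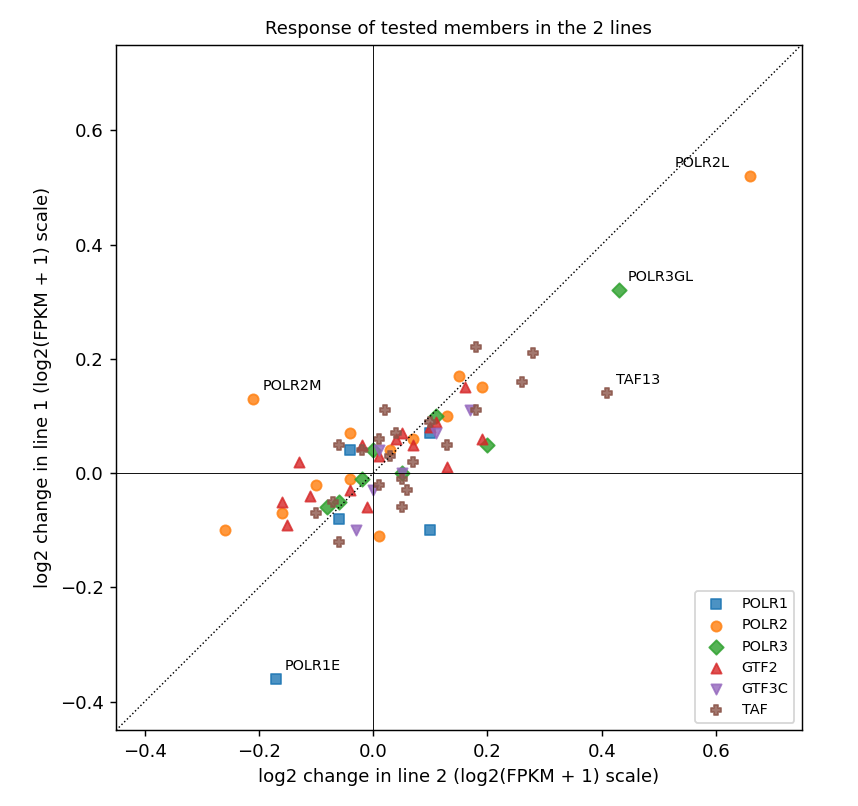
Log2 change (SUPT4H1 siRNA over control siRNA, log2(FPKM + 1) scale) of the tested genes named in the text in line 2 (horizontal axis) and line 1 (vertical axis), with shapes and colours for the gene groups and a dotted line of equal change. POLR2L and POLR3GL lie far up the right side, TAF13 lies to the right at 0.41 in line 2 with 0.14 in line 1, POLR1E lies far down the left, and POLR2M alone has -0.21 in line 2 with 0.13 in line 1.

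Under control siRNA, 30 of the 70 genes differed between lines, 9 higher in line 2, beside 24.2% of all genes tested, and 21 lower, beside 33.8%. The largest difference was that of GTF2H2, at 0.843 and 0.875 FPKM in line 2 and 2.55 and 2.72 FPKM in line 1 (log2 difference -0.97), subject to the sharing of reads with its copies. POLR2M (-0.55), TAF1C (-0.46) and POLR1E (-0.43) were also lower in line 2, while GTF2F2 (0.55), TAF13 (0.40) and TAF9 (0.29) were higher. For TAF9, a histone-fold TFIID subunit also found in SAGA, control samples measured 24.4 and 25.2 FPKM in line 2 and 20.0 and 20.1 FPKM in line 1. For GTF2F2, TAF13, POLR2M and POLR1E the control difference between lines was larger than the response to SUPT4H1 siRNA over both lines.

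By level, POLR2L stood first with a mean of 137 FPKM over the 8 samples, followed by TAF10 (48.8), TAF15 (34.7), GTF2I (33.8), TAF13 (32.7) and POLR1D (30.2). POLR2L was above TAF10 in every sample, whereas TAF13 reached the TAF10 range in 1 sample and TAF15, GTF2I, TAF13 and POLR1D overlapped with one another. TAF5, at 1.21 FPKM, was the lowest gene tested. The group medians of these means were 21.0 FPKM for POLR2, 9.09 for GTF3C, 8.15 for GTF2, 7.25 for POLR1, 7.16 for TAF and 5.55 for POLR3. The 13 genes not tested averaged under 1 FPKM: POLR3G, POLR2J2, POLR2J3, POLR2J4, GTF2A1L, GTF2H2B, GTF2H2C, GTF2IP1, GTF2IRD1P1, TAF1L, TAF4B, TAF7L and the antisense GTF3C2-AS1. POLR2J4 was the highest of them after SUPT4H1 siRNA, at 0.947 FPKM against 0.791 FPKM after control siRNA. The paralog TAF4B averaged 0.449 FPKM after SUPT4H1 siRNA and 0.632 FPKM after control siRNA, and TAF7L, a paralog known from germ cells and fat, 0.104 and 0.0570 FPKM.

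**Figure D5:**
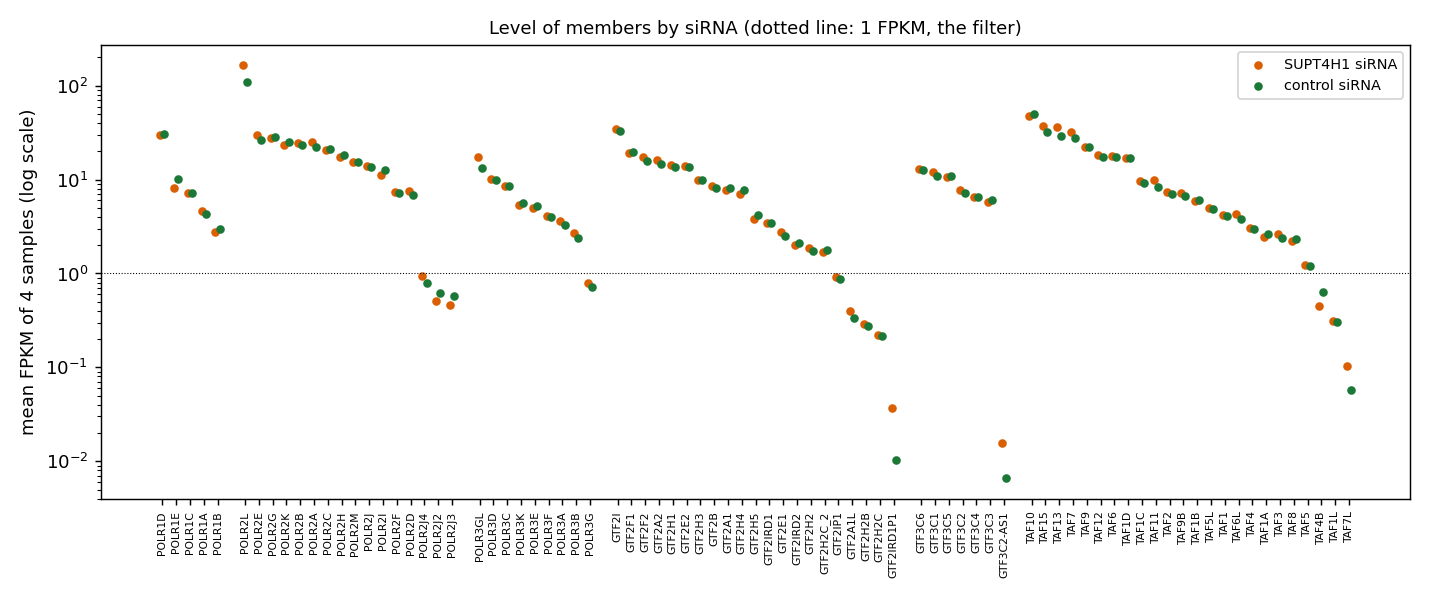
Mean FPKM of 4 samples (vertical axis, log scale) of the genes named in the text after SUPT4H1 siRNA (orange) and control siRNA (green), in order of level within each group, with a dotted line at 1 FPKM. POLR2L stands above every other gene under both siRNAs, and the 13 genes below the line were not tested.

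Genes of the same processes that fall outside the symbol rule were counted for comparison, from lists chosen with earlier results of these data known. Of 16 polymerase I and III subunits and factors, 15 were tested, and 4 rose and 3 fell (median 0.03). That is 26.7% and 20% of those tested, beside 26.8% and 15.2% of all genes. ZNRD1, a small polymerase I subunit, averaged 6.10 ± 1.3 FPKM after SUPT4H1 siRNA and 7.91 ± 1.2 FPKM after control siRNA (SD, n = 4 each). It fell by 0.34 on the log2 scale (limma adjusted p = 0.0147, and 0.052 with no filter on FPKM). Its values are sums of 8 rows of that symbol. SNAPC1 and SNAPC2, subunits of the complex that activates small nuclear RNA genes, fell by 0.17 and 0.12 (adjusted p = 0.0186 and 0.0236), calls that ended without SUPT4H1 siRNA line 1 replicate 1 (0.0529 and 0.0558) or SUPT4H1 siRNA line 2 replicate 1 (0.0515 and 0.07). SNAPC1 also needed control siRNA line 1 replicate 1 (0.0531 without it), and SNAPC2 control siRNA line 1 replicate 2, both line 2 controls and SUPT4H1 siRNA line 2 replicate 2 (0.0503 to 0.0686 without each). SNAPC3 of the same complex rose by 0.13 (adjusted p = 0.015). The polymerase III subunit CRCP rose by 0.15 (adjusted p = 0.0044), the TFIIIB subunit BRF1 by 0.13 (0.0158) and the ribosomal DNA activator UBTF by 0.09 (0.0288). Scaling by median ratios ended the calls of BRF1 (0.056) and UBTF (0.143), and that of UBTF was also lost without any sample other than control siRNA line 1 replicate 2 or SUPT4H1 siRNA line 1 replicate 1 (0.0578 to 0.0829). The polymerase I subunit TWISTNB was not called (adjusted p = 0.119), and CD3EAP, the partner of POLR1E, was under 1 FPKM, at 0.715 ± 0.089 FPKM after SUPT4H1 siRNA and 0.840 ± 0.038 FPKM after control siRNA (SD, n = 4 each). Among 6 genes for assembly and import of polymerase II, RPAP1 rose by 0.16 and RPAP3 by 0.15 (adjusted p = 0.00738 and 0.0186), RPAP3 not without control siRNA line 1 replicate 1 (0.0535) or SUPT4H1 siRNA line 2 replicate 2 (0.0528). Of 9 tested SAGA and acetyltransferase genes, KAT2B, an acetyltransferase, rose by 0.30 (limma adjusted p = 1.76e-04), as did TADA2B by 0.15 (0.0152), and 0 fell. Risers made up 33.3% of the assembly and import genes and 22.2% of the SAGA and acetyltransferase genes, beside 26.8% of all genes tested. Neither list had a faller, beside 15.2% of all genes. Of 9 genes of mitochondrial transcription, 0 passed in limma, 1 was higher and 0 lower at an unadjusted p under 0.05 (32.3% and 18.4% of all genes), and the median was 0.01. With no line term, KAT2B (adjusted p = 0.0481) was the only gene named in this paragraph to pass.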

How the data were processed

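The deposited tables give 1 FPKM value per annotated locus and sample, with the authors' confidence limits, per the file headers. Loci are on hg19, per the submitters' processing notes; the sources used here do not name the aligner, quantifier, annotation or use of strand. Rows of 1 symbol were summed. Genes with a mean of at least 1 FPKM, a valid estimate in every sample and a locus of at least 200 bases were tested (11444 genes) on log2(FPKM + 1) with limma 3.58.1 (R 4.3.3), trend on and line as a block (5 residual degrees of freedom), with Benjamini-Hochberg adjustment over all genes and a threshold of 0.05. Responses within lines, their difference and the control lines came from a fit of 4 group means (4 residual degrees of freedom). Sequence windows were read with Python 3.11.15 from RefSeq tables. FPKM carries no fragment number, so depth is unknown; the authors' interval was 7.01 to 7.93% (median over 68 genes, per sample) on each side.

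The study's design text groups 4 samples against 4 without line. Line was added because the lines are the cells that both siRNAs share, and it was named as the block for this comparison. Samples of 1 line also deviated together (correlations of deviations from the siRNA means 0.883 to 0.899). Same replicate numbers correlated at 0.103 in line 1 and 0.0502 in line 2, and the labels tie them to nothing. Values are given per sample for up to 4 called genes of largest change and the highest gene in each group, for genes whose response differed between lines and for genes with near-identical copies; other called genes were added, and the rest are given by counts and ranges. The genes and lists were chosen with earlier results of these data known. Alternatives were other pseudocounts, filters, scalings and blocks, no mean-variance trend and leaving out each sample. The fit was tested on simulated data. The values of 1 gene are not reported here, though it stays in the counts and medians.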

Additional observations from a re-analysis of the deposited data

Results flagged for a closer look

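POLR2M drew attention because its response to SUPT4H1 siRNA differed between the lines by a test of the difference itself. The log2 change in line 2 minus that in line 1 was -0.34 (SE 0.06, adjusted p = 0.00475 in limma over all genes). It was -0.36 with a pseudocount of 0.1 FPKM (adjusted p = 0.00492) and -0.35 after scaling by median ratios (adjusted p = 0.00271). Leaving out any 1 of the 8 samples, an alternative chosen after seeing the data, with the lone sample of its group assumed to vary like the others, gave -0.39 to -0.29, past the threshold each time. In both lines the SUPT4H1 siRNA and control siRNA samples did not overlap, and they moved in opposite directions. Each siRNA-by-line group held 2 samples, too few to look for single outlying samples.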

How the results depend on the processing

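As reported, 17 genes rose and 5 fell. With no line term 6 rose and 0 fell, and with a replicate block of line and replicate number together 13 rose and 3 fell. With no filter on FPKM 14 of 83 rose and 3 fell, and after scaling by median ratios 11 rose and 10 fell. Over all genes, risers made up 63.8% of the calls as reported and 50.1% after scaling. The share of all genes called was not counted for the replicate block, for the fit with no filter or with 1 sample left out. Counts from those fits thus have no background beside them. Leaving out 1 sample gave 12 to 17 risers and 1 to 5 fallers, with 1 faller without control siRNA line 2 replicate 2 or SUPT4H1 siRNA line 2 replicate 2, 2 without SUPT4H1 siRNA line 1 replicate 1 and 3 without SUPT4H1 siRNA line 1 replicate 2. The POLR1 median of 0.001 ranged from -0.06 to 0.023 and the POLR2 median of 0.017 from -0.017 to 0.05 with 1 sample left out, so their signs are not fixed. The medians of POLR3 (0.026), TAF (0.035) and TFII with TFIIIC (0.024) stayed above 0 in those fits, at 0.019 to 0.051, 0.023 to 0.045 and 0.013 to 0.054. The median over all genes was 0.031 as reported and 0.025 to 0.036 in those fits, so staying above 0 does not set these groups apart. Scaling moved the POLR2, POLR3, TAF and TFII with TFIIIC medians to -0.016, -0.005, 0.005 and -0.008, beside 0.001 over all genes. The POLR3 median was 0.042 with no filter and 0.006 at a mean of 5 FPKM or more, and the TAF median 0.055 at that filter. Over all genes the median was 0.006 with no filter and 0.038 at a mean of 5 FPKM or more. Keeping loci under 200 bases, an alternative chosen after seeing the data, ended the call of GTF2H4 (adjusted p = 0.0521). Dropping the filter ended 6 of the 22 calls (GTF2F2, GTF2H1, GTF2H4, POLR2I, POLR2K and POLR3B; adjusted p = 0.0609 to 0.0945), and fitting without limma's mean-variance trend ended 3 (GTF2H1, GTF2H4 and TAF10; 0.0522 to 0.0569). Causes were not tested. The block on replicate number ended 6 of the 22 calls, and the numbers pair no samples. Precision is limited by 2 samples per siRNA and line.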

Other observations

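For the members that moved most, the nearest tested gene on each side is also given (hg19 order). Genes that were not tested can lie between them. TSPAN4, which starts 295 bases from POLR2L, averaged 104 ± 2.3 FPKM after SUPT4H1 siRNA and 82.2 ± 3.7 FPKM after control siRNA (SD, n = 4 each; log2 change 0.34, SE 0.03, adjusted p = 9.94e-05). CD151, 886 bases away on the other side, averaged 200 ± 26 FPKM after SUPT4H1 siRNA and 190 ± 22 FPKM after control siRNA and did not pass (0.07, adjusted p = 0.0822). Beside POLR3GL, ANKRD34A had -0.04 (adjusted p = 0.461) and NBPF25P, which overlaps it, -0.06 (0.589), and neither was called. On either side of TAF13, WDR47, 22148 bases away, rose by 0.29 (limma adjusted p = 0.00105). TMEM167B, 14779 bases away, had -0.03 (adjusted p = 0.519). Near TAF11, UHRF1BP1 fell by 0.15 on the log2 scale (adjusted p = 0.0299) and ANKS1A had -0.01 (adjusted p = 0.845). On either side of POLR1E, FBXO10 (7195 bases away) and ZBTB5 (20525 bases away) had 0.12 and -0.05. Neither was called (limma adjusted p = 0.0638 and 0.384). The nearest tested genes to TAF15 were far off: AP2B1, 83023 bases away, rose by 0.14 (limma adjusted p = 0.00254). ZNHIT3, 668225 bases away, had -0.10 (0.0761). For TAF7, PCDHGA2, 17976 bases away, fell by 0.18 on the log2 scale (0.016). PCDHB14, 92197 bases away, had -0.11 (0.108). Over the 70 tested genes, the Spearman correlation of the log2 change with the span of the locus was 0.17 (-0.05 over all genes) and with mean FPKM 0.20 (0.05 over all genes), both across genes that share the same 8 samples.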
